A study of Mus musculus with 16 samples.

Results

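The expression of 43 genes that sense or repair DNA damage was followed in the brains of newborn mice whose fathers' sperm had been freeze-dried and then heated or irradiated, freeze-dried alone, or used fresh. The genes were taken from a list written from general knowledge of repair pathways, and all 43 were found on the array through RefSeq symbols or synonyms, among 26473 genes and features tested in all. None was selected for its values in a comparison of groups, but the list was proposed with earlier results of these data known. Each gene had a probe well above background on all 16 arrays, so none was lost to the filter on dim probes.

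There were 4 neonates of strain C57BL/6 per group, taken at postnatal day 1, and total RNA of each brain was hybridised to its own one-colour array. The heated group (FD spermatozoa_95°C1h, where FD stands for freeze-dried) came from freeze-dried sperm kept at 95 °C for 1 h. The irradiated group (FD spermatozoa_5Gy) came from sperm exposed to 5 Gy of X-rays after freeze-drying, the freeze-dried group (FD spermatozoa_control) from freeze-dried sperm with no further treatment, and the fresh group from fresh sperm. Freeze-drying is thus shared by the first 3 groups, and the treatments were given to the sperm, never to the offspring whose brains were measured. Freeze-dried sperm cannot swim and fertilise an egg only when injected into it. How the eggs of each group were fertilised, and which neonates were littermates, is not given in the sources used here. If neonates shared litters, the p-values are too small.

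Cells repair different kinds of DNA damage by different routes. A double-strand break is recognised by the Mre11-Rad50-Nbn complex and the kinase Atm, and is closed either by end joining, which ligates the ends directly, or by homologous recombination, which copies the intact sister strand and therefore works mainly in dividing cells. Damaged single bases are cut out by base excision repair, bulky damage by nucleotide excision repair and copying errors by mismatch repair, while the Fanconi anaemia proteins unhook cross-linked strands. In the developing brain, end joining is needed for newly born neurons to survive, and loss of Lig4 or Xrcc4 in mice causes widespread death of these cells.

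Levels below are log2 signals of the processed array intensity relative to the 75th percentile of the same array, and differences are differences of group means on that scale, with their standard error (SE) and 95% interval from limma fitted over all 26473 features. Calls were made where the p adjusted by Benjamini and Hochberg was under 0.05. Between 59.9% and 66.1% of the spots of an array were well above background. The arrays came as 2 slides of 8. The 4 heated animals were all on slide 2 and the 4 freeze-dried animals all on slide 1, while the irradiated and the fresh group each had animals 1 and 2 on slide 1 and animals 3 and 4 on slide 2. No slide therefore held both heated and freeze-dried animals, and a difference between the 2 groups cannot be separated from the slides except through the animals of the other 2 groups. The labels' animal numbers change with the slide in the fresh group, so within that group the slide and the meaning of the number cannot be told apart. The Y-linked genes were high together in 1 heated, 3 irradiated, 4 freeze-dried and 2 fresh animals. Y-linked RNA is a sign of male sex, so sex was uneven between heated and freeze-dried animals and is mixed into that comparison. Hoxb5, a marker of hindbrain and spinal cord, had levels of -7.17 (heated 2), -7.75 (heated 4), -6.05 (freeze-dried 2) and -7.49 (fresh 2), and of -1.61 or above elsewhere. Pcp2, a gene of cerebellar Purkinje cells, stood at -2.55 (heated 2) and -3.73 (heated 4), and at 0.81 or above in the other 14 animals.

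The repair genes differed little between the groups. Of the 43 genes, 1 fell in heated against freeze-dried offspring (Nhej1), 1 fell in heated against fresh (Parp1), 1 fell in irradiated against fresh (Lig4), and none rose in any of the 6 comparisons. The share of all features called was 3.86% in heated against freeze-dried (1.36% lower), 2.93% in heated against fresh (0.54% lower) and 1.37% in irradiated against fresh (0.51% lower). As a share, 1 of 43 genes lies below the total in heated against freeze-dried and heated against fresh. It lies above the total in irradiated against fresh, and above the share called lower in each. A count of 1 is too small to tell these shares apart. In heated against irradiated offspring no repair gene was called, against 1.01% of all features. In irradiated against freeze-dried and in freeze-dried against fresh offspring limma called 0% of all features and no repair gene, and at an unadjusted p under 0.05 it passed 5 of 43 repair genes (7.22% of all features) and 2 of 43 (9.93% of all features). Comparisons that use the same group of animals share those animals' values and are not independent of each other.

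**Figure D1:**
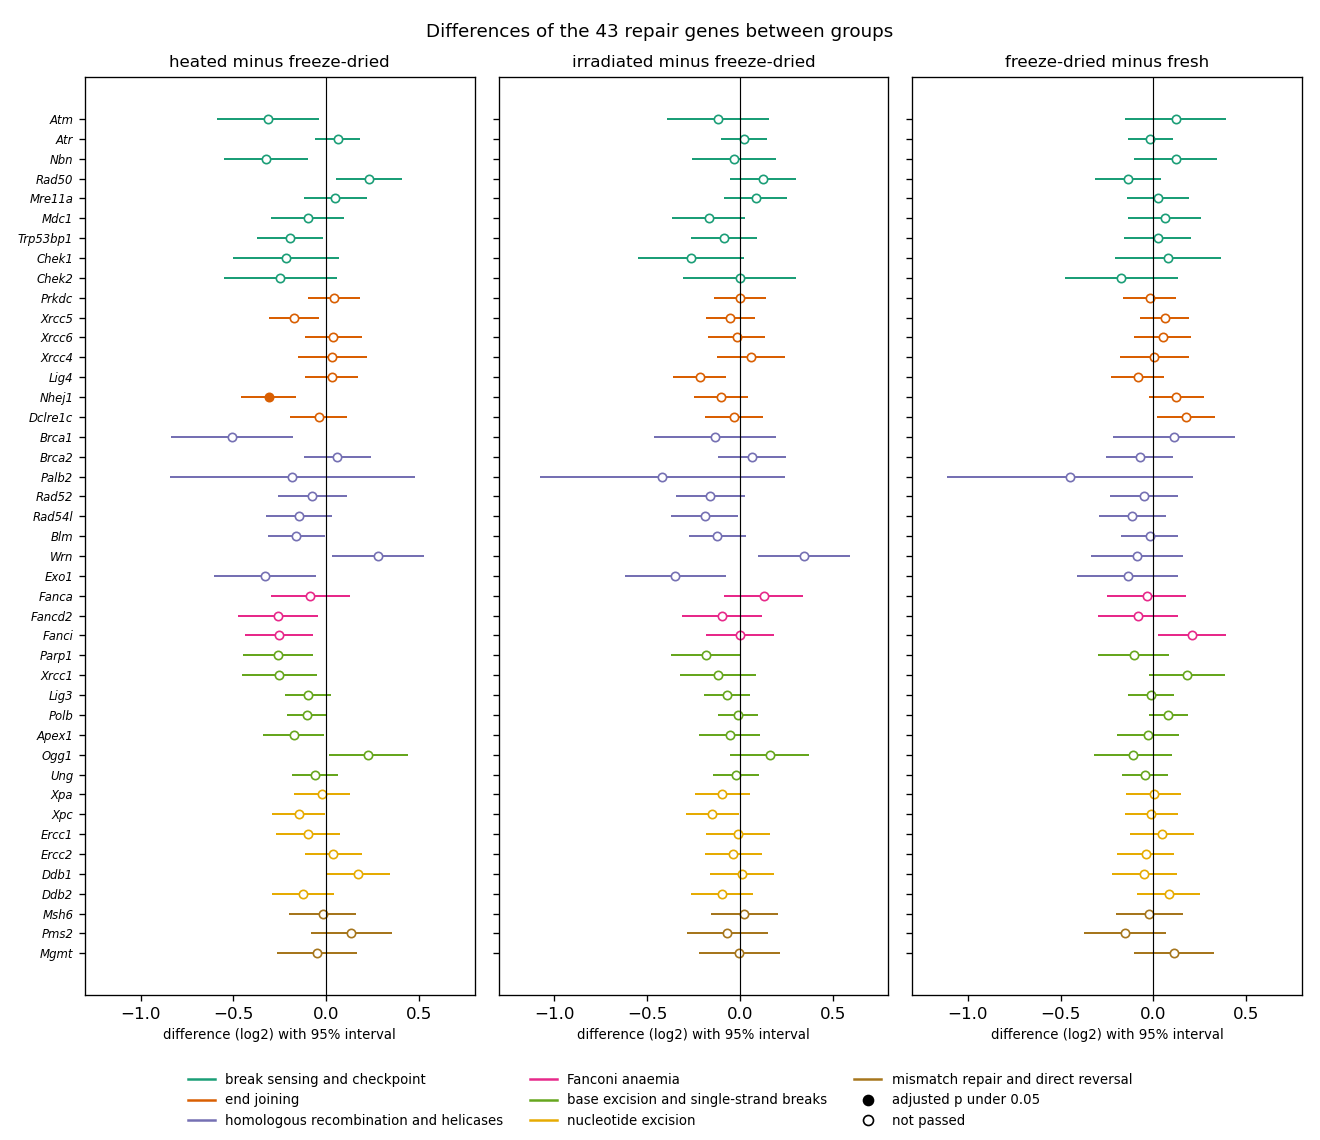
Difference in log2 level (horizontal axis, with 95% interval) of each of the 43 repair genes for heated minus freeze-dried, irradiated minus freeze-dried and freeze-dried minus fresh offspring, n = 4 animals per group, coloured by repair route. The filled point is Nhej1, the 1 gene called in these 3 comparisons; open points were not called.

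Small differences leaned one way in heated offspring. Against freeze-dried offspring, 30 of the 43 genes were lower on average, against 46.3% of all features, with a median difference of -0.10 for the repair genes and 0.02 for all features. At an unadjusted p under 0.05, 15 repair genes were lower and 4 higher, where 10.9% and 13% of all features were. In 12 of the 43 every heated animal lay below every freeze-dried one and in 3 every heated animal lay above, where 8.9% and 11.4% of all features did. The genes were measured in the same animals, so these counts are a description. With slide as a block in the fit, the median of the repair genes was -0.06, 30 of 43 were lower, and no gene of the array was called in this comparison.

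In irradiated against freeze-dried offspring, 31 of 43 repair genes were lower on average, against 45.1% of all features, with a median difference of -0.05 for the repair genes and 0.02 for all features. Every irradiated animal lay below every freeze-dried one for 4 genes (Lig4, Palb2, Rad54l and Exo1) and above for 1 (Ogg1), where 1.82% and 2.78% of all features did so. In freeze-dried against fresh offspring, 24 of 43 were lower, against 44.7% of all features, and the median difference was -0.02 for the repair genes and 0.02 for all features.

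Among the 9 genes of break sensing and the checkpoint, no comparison gave a call. Nbn, the subunit that brings Atm to a break, was at -1.55, -1.63, -1.54 and -1.61 in heated offspring, at -1.15, -1.12, -1.50 and -1.39 in irradiated, at -1.35, -1.25, -1.19 and -1.23 in freeze-dried and at -1.39, -1.11, -1.62 and -1.38 in fresh offspring. The heated animals all lay below the irradiated and the freeze-dried ones, fresh 3 lay inside the heated range, and the irradiated animals were lower on slide 2 than on slide 1. The heated minus freeze-dried difference was -0.32 (SE 0.10, adjusted p = 0.0827), and -0.04 with slide as a block (adjusted p = 0.976).

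Its partner Rad50, which holds the ends of a break together, was at 0.08 to 0.16 in heated and at -0.27 to -0.01 in freeze-dried offspring, with no overlap. The difference of 0.23 (SE 0.08, adjusted p = 0.105) became 0.01 with slide as a block. A dimmer Rad50 probe, also well above background on all 16 arrays, gave -0.02, so the direction depended on the probe. Mre11a, the nuclease of the same complex, was at 0.01 to 0.08 in heated and at -0.02 to 0.02 in freeze-dried offspring, ranges that overlapped. None of the 3 subunits was called.

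Atm, the kinase that signals double-strand breaks, was at -1.13, -0.97, -0.95 and -0.98 in heated, at -0.70, -0.66, -0.94 and -0.94 in irradiated, at -0.79, -0.75, -0.61 and -0.62 in freeze-dried and at -0.43, -0.69, -1.11 and -1.02 in fresh offspring. In both groups that were split between the slides, the animals on slide 2 were the lower ones. Between the slides within the fresh group, limma called 555 of the 26473 features and 1 of the 43 repair genes. That gene was Atm (slide 2 minus slide 1: -0.50, adjusted p = 0.0328). Its heated minus freeze-dried difference of -0.31 (SE 0.13, adjusted p = 0.148) turned to 0.07 with slide as a block. A dimmer Atm probe, also well above background on all 16 arrays, gave -0.08. Atr, the kinase that answers stalled replication forks, was at 1.33 to 1.47 in heated and at 1.32 to 1.37 in freeze-dried offspring and differed by less than the animals of a group did.

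The other 4 genes of this route are adaptors and checkpoint kinases. Trp53bp1, which steers breaks to end joining, was at 2.49 to 2.63 in heated and at 2.69 to 2.92 in freeze-dried offspring, but its difference of -0.20 (adjusted p = 0.163) vanished with slide as a block (0.00). Mdc1, the platform that spreads the signal along chromatin, gave -0.10 for heated minus freeze-dried, with an interval of -0.29 to 0.09. Chek1 and Chek2, kinases that halt the cell cycle, gave differences of -0.21 and -0.25 in the same comparison with intervals that included 0, and Chek2 gave -0.42 in heated minus fresh offspring (SE 0.14, adjusted p = 0.124).

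End joining held 2 of the 3 genes called. Nhej1 encodes the cofactor, also named XLF, that helps Xrcc4 and Lig4 bridge and seal the ends. It was at -1.18, -1.34, -1.18 and -1.16 in heated offspring, at -0.91, -0.96, -1.13 and -1.02 in irradiated, at -0.91, -0.87, -0.91 and -0.94 in freeze-dried and at -0.92, -0.94, -1.12 and -1.13 in fresh offspring. Every heated animal lay below every animal of the other 3 groups, and the slide 2 animals of the fresh group lay near the heated ones while its slide 1 animals lay near the freeze-dried ones. Heated minus freeze-dried was -0.31 (SE 0.07, 95% interval -0.45 to -0.17, a ratio of 0.807, limma adjusted p = 0.0243). The smaller differences of heated minus fresh (-0.19, adjusted p = 0.151) and heated minus irradiated (-0.21, adjusted p = 0.157) were not called.

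**Figure D2:**
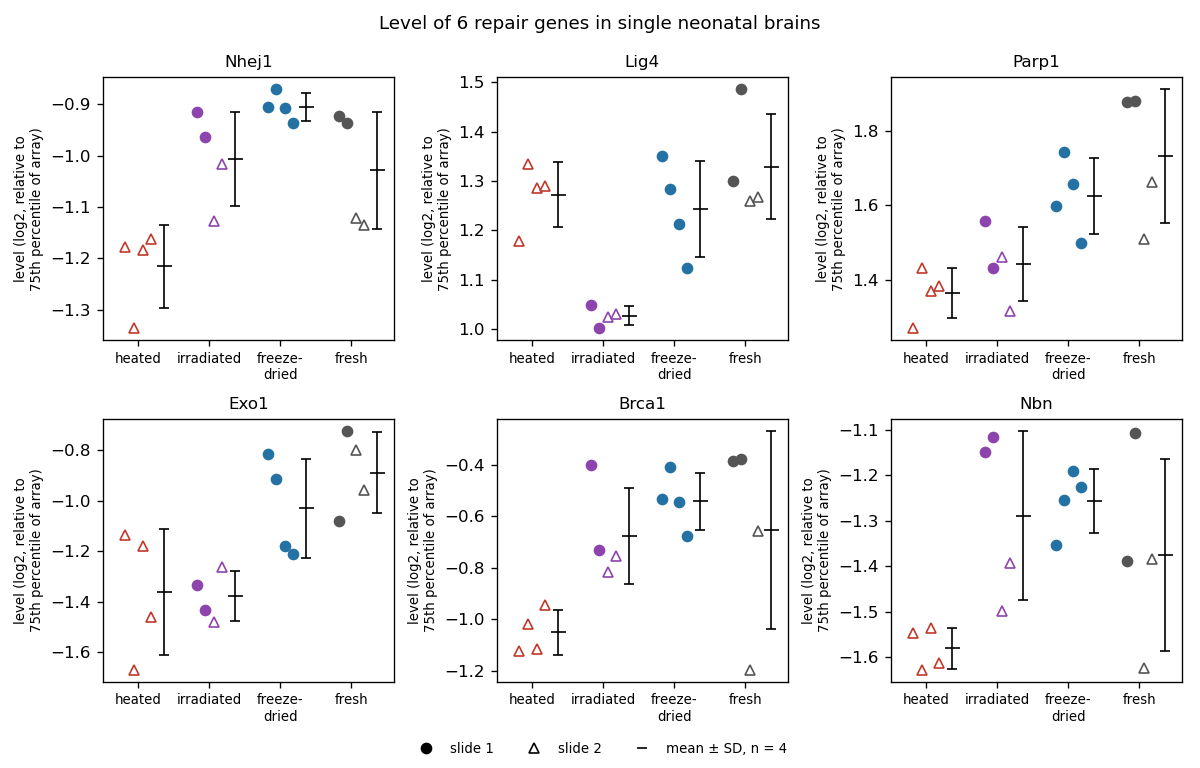
Level (log2, relative to the 75th percentile of the array) of Nhej1, Lig4, Parp1, Exo1, Brca1 and Nbn in each of the 16 animals, with mean ± SD of 4 animals beside each group, circles for slide 1 and triangles for slide 2. Nhej1 is lowest in the heated animals, Lig4 in the irradiated animals, and the fresh animals of slide 2 lie below those of slide 1 for Nhej1, Parp1 and Brca1.

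The Nhej1 call depended on the slides. With slide as a fixed block the difference was -0.14 (SE 0.07, adjusted p = 0.635), with slide as a random block -0.24 (adjusted p = 0.173), and within slide 2 heated minus fresh was -0.09. In all, 13 of 33 other settings of the analysis kept the direction and lost the call, among them leaving out freeze-dried 1 (adjusted p = 0.0507), freeze-dried 2 (0.0746), heated 2 (0.0812) or heated 4 (0.0509), a term for Y-linked signal (0.107) and leaving out the 4 arrays low in Hox genes (-0.26, adjusted p = 0.250).

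Lig4, the ligase that seals the ends in the last step of end joining, was lowest in irradiated offspring. It was at 1.18, 1.33, 1.29 and 1.29 in heated, at 1.05, 1.00, 1.03 and 1.03 in irradiated, at 1.35, 1.28, 1.21 and 1.12 in freeze-dried and at 1.30, 1.49, 1.26 and 1.27 in fresh offspring. Every irradiated animal lay below every animal of the other 3 groups, on both slides, and the irradiated animals varied less (SD 0.02) than the freeze-dried (SD 0.10) and fresh ones (SD 0.11). Irradiated minus fresh was -0.30 (SE 0.06, 95% interval -0.44 to -0.17, a ratio of 0.811, adjusted p = 0.0369), with -0.37 within slide 1 and -0.24 within slide 2. Slide as a fixed block kept the call (-0.30, adjusted p = 0.0271).

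Against freeze-dried offspring, whose sperm had the freeze-drying without the X-rays and whose arrays were all on slide 1, Lig4 differed by -0.22 (SE 0.06, 95% interval -0.35 to -0.08), which did not pass the adjustment over all features (unadjusted p = 0.00409, adjusted p = 0.65). Heated minus irradiated was 0.25 (SE 0.06, adjusted p = 0.0846), and freeze-dried minus fresh -0.09 (SE 0.06). The call in irradiated against fresh was lost, with the direction kept, in 21 of 35 other settings, among them leaving out any 1 irradiated animal (adjusted p from 0.0661 for irradiated 4 to 0.105 for irradiated 2), fresh 1, 2 or 3 (0.0506 to 0.0848) or heated 2, 3 or 4 (0.0511 to 0.0555), and normexp background correction (-0.21, adjusted p = 0.271).

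The array holds a second, dimmer Lig4 probe that was well above background on all 16 arrays, and it gave a different order of the groups. It was at -0.25, -0.12, -0.25 and -0.12 in heated, at -0.00, 0.08, -0.29 and -0.19 in irradiated, at 0.24, 0.34, 0.15 and 0.03 in freeze-dried and at 0.56, 0.50, -0.21 and 0.07 in fresh offspring. Irradiated animals were lower than fresh ones on average by both probes (-0.33, SE 0.14, adjusted p = 0.267 for the dimmer probe), but the heated animals were the lowest group by the dimmer probe and not by the brighter one. Heated minus freeze-dried was -0.38 (SE 0.14, adjusted p = 0.129) by the dimmer probe and 0.03 (SE 0.06, adjusted p = 0.815) by the brighter one when each probe was tested on its own. With the mean of both probes the irradiated minus fresh difference was -0.32 and was not called (adjusted p = 0.113).

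**Figure D3:**
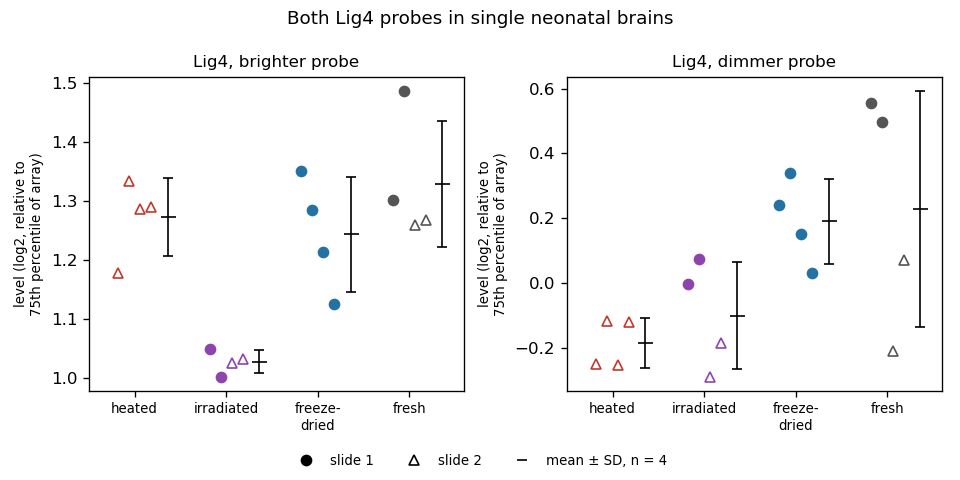
Level (log2, relative to the 75th percentile of the array) of the brighter and the dimmer Lig4 probe in each of the 16 animals, with mean ± SD of 4 animals beside each group, circles for slide 1 and triangles for slide 2. The irradiated animals are the lowest group by the brighter probe, the heated animals by the dimmer one, where the slide 2 animals of the irradiated and fresh groups also lie below their slide 1 animals.

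The other 5 end-joining genes were not called in any comparison. Xrcc5, the larger subunit of the Ku ring that grips a broken end, was at 0.50, 0.47, 0.39 and 0.43 in heated and at 0.68, 0.60, 0.64 and 0.56 in freeze-dried offspring, without overlap. That difference of -0.17 (SE 0.06, adjusted p = 0.1) was -0.06 with slide as a block. Its partner Xrcc6 gave 0.04, Prkdc, the kinase that Ku recruits, 0.04, and Xrcc4, the scaffold of Lig4, 0.03 for heated minus freeze-dried, each with an interval that included 0. Dclre1c, the nuclease Artemis that trims the ends, was at -0.90, -0.87, -0.72 and -0.81 in freeze-dried and at -0.89, -1.09, -1.10 and -0.91 in fresh offspring. Those ranges overlapped, and its freeze-dried minus fresh difference was 0.17 (SE 0.07, adjusted p = 0.458).

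For the 3 genes called, the 300 bases around the annotated gene start are shown, since they are the stretch of DNA that sets the basal rate of transcription. They were taken from RefSeq (build GRCm38.p6) as 250 bases before to 50 bases after the start, with GC boxes, the Sp1-type motif GGGCGG on either strand, in capitals.
Nhej1, chr1:75125177-75125476, minus strand: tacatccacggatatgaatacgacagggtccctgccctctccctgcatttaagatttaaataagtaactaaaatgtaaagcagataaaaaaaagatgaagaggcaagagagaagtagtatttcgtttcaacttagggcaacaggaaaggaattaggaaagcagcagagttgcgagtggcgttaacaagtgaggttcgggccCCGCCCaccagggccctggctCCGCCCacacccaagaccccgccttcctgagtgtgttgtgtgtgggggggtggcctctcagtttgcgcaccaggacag
Lig4, first start, chr8:9977631-9977930, minus strand: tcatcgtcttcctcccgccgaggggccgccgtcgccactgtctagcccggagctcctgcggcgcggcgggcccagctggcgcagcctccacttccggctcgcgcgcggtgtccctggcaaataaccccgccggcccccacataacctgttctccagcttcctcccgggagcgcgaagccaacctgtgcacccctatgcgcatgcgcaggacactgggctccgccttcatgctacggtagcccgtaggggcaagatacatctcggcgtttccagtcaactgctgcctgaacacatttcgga
Lig4, second start, chr8:9976262-9976561, minus strand: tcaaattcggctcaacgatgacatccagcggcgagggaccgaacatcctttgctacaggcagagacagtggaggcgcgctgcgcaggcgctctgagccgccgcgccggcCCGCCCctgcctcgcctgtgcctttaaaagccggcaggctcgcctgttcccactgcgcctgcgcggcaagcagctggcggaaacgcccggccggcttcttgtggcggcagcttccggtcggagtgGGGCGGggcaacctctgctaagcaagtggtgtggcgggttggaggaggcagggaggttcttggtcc
Parp1, chr1:180568641-180568940, plus strand: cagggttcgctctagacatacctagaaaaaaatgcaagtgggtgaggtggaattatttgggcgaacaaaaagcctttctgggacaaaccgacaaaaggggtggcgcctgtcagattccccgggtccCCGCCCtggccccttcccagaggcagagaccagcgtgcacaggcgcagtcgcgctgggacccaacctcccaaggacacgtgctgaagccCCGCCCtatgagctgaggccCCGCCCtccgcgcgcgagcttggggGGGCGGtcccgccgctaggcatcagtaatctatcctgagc

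Nhej1 had 2 GC boxes in its window, Parp1 4, and Lig4 none at one start and 2 at the other. Windows were found for 34 of the 43 repair genes (37 windows), and 28 of the 37 held a GC box, against 35.7% of 32851 windows of the table. The CCAAT box (CCAAT on either strand) was in 20 of the 37 and in 37.4% of all windows. The E2F motif (TTTCGCGC or TTTGGCGC on either strand) was in 0 of the 37 and in 0.813% of all windows. These matches describe the letters of the windows only, and a match is not a bound site.

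Homologous recombination and its helicases, 8 genes, had no call. Brca1, which helps load the recombinase onto a resected end, was at -1.12, -1.02, -1.12 and -0.94 in heated, at -0.40, -0.73, -0.81 and -0.75 in irradiated, at -0.53, -0.41, -0.55 and -0.68 in freeze-dried and at -0.38, -0.38, -1.20 and -0.66 in fresh offspring. The heated animals lay below all irradiated and freeze-dried ones, while fresh 3 was lower still. Between heated and freeze-dried offspring the difference was -0.51 (SE 0.15, 95% interval -0.83 to -0.19, adjusted p = 0.0697), and -0.13 with slide as a block (adjusted p = 0.931).

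Exo1, the nuclease that resects a broken end and also serves mismatch repair, had its lowest group means in the 2 treated groups. It was at -1.14, -1.67, -1.18 and -1.46 in heated, at -1.33, -1.43, -1.48 and -1.26 in irradiated, at -0.81, -0.91, -1.18 and -1.21 in freeze-dried and at -1.08, -0.72, -0.80 and -0.96 in fresh offspring. Every heated and every irradiated animal lay below every fresh one, every irradiated animal lay below every freeze-dried one, and the heated and freeze-dried ranges overlapped. Irradiated minus fresh was -0.49 (SE 0.13, adjusted p = 0.0714), with -0.48 within slide 1 and -0.49 within slide 2, and heated minus fresh was -0.47 (SE 0.13, adjusted p = 0.0603), neither of them called. Irradiated minus freeze-dried was -0.35 (adjusted p = 0.684) and heated minus freeze-dried -0.33 (adjusted p = 0.13). Without the 4 arrays low in Hox genes, heated minus fresh shrank to -0.21 (adjusted p = 0.691).

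Rad54l, a motor that helps the recombining strand invade its partner, was at -2.61, -2.74, -2.69 and -2.79 in irradiated, at -2.42, -2.54, -2.50 and -2.60 in freeze-dried and at -2.20, -2.53, -2.42 and -2.46 in fresh offspring. The irradiated animals lay just below both other groups. Irradiated minus fresh was -0.30 (SE 0.08, adjusted p = 0.0796) and irradiated minus freeze-dried -0.19 (adjusted p = 0.684). Wrn, the Werner syndrome helicase, was the member with the largest positive difference in irradiated against freeze-dried offspring: 0.70, 1.09, 0.95 and 0.90 in irradiated against 0.47, 0.49, 0.40 and 0.91 in freeze-dried animals, a difference of 0.34 (SE 0.11, adjusted p = 0.684) with overlapping ranges. With the mean of the measured Wrn probes in place of the brightest that difference was -0.03, so its direction depended on the probe.

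Palb2, which links Brca1 to Brca2, had the widest spread among the 43 genes. It was at -4.55 to -4.25 in irradiated offspring and at -4.07, -4.04, -3.90 and -2.25 in fresh offspring, so 1 fresh animal set most of the irradiated minus fresh difference of -0.87 (SE 0.31, adjusted p = 0.174), which was -0.35 within slide 1 and -1.38 within slide 2, where that animal lay. Brca2, the carrier of the recombinase, differed by 0.06 between heated and freeze-dried offspring (interval -0.12 to 0.24) by its brightest probe. Its 2 other probes, also well above background on all 16 arrays, gave -0.23 and -0.22, so its direction depended on the probe. Blm, the Bloom syndrome helicase that dissolves joined molecules, was at -0.98 to -0.79 in heated and at -0.76 to -0.69 in freeze-dried offspring, without overlap, a difference of -0.16 (adjusted p = 0.171) that was -0.08 with slide as a block. Rad52, which anneals single strands, differed by -0.07 in the same comparison.

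Of the 3 Fanconi anaemia genes, none was called. Fanci, which is switched on together with Fancd2 by ubiquitin at a cross-link, was at -1.13, -1.51, -1.31 and -1.50 in heated, at -1.03, -1.14, -1.20 and -1.07 in irradiated, at -1.08, -1.21, -1.04 and -1.12 in freeze-dried and at -1.43, -1.20, -1.31 and -1.34 in fresh offspring. Most heated and fresh animals were lower than the irradiated and freeze-dried ones, but heated 1 and fresh 2 lay inside the freeze-dried range. The difference of heated minus freeze-dried was -0.25 (SE 0.08, adjusted p = 0.0909), and -0.23 with slide as a block (adjusted p = 0.704). Freeze-dried minus fresh was 0.21 (SE 0.08, adjusted p = 0.456).

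Its partner Fancd2 was at -4.38, -4.32, -4.47 and -4.39 in heated and at -3.85, -4.10, -4.22 and -4.04 in fresh offspring, without overlap. That difference was -0.34 (SE 0.10, adjusted p = 0.0811). Fanca, a core subunit of the enzyme that adds the ubiquitin, was at -1.04, -1.49, -1.12 and -1.35 in heated and at -1.26, -1.13, -1.16 and -1.11 in freeze-dried offspring. For Fanci and Fanca, heated 2 and heated 4 were the lowest animals of their group. The same animals were low in Pcp2 and Hoxb5, and the part of brain region in these differences was not tested.

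Base excision and single-strand break repair, 7 genes, held the third call. Parp1, the sensor that marks single-strand breaks with chains of ADP-ribose, was at 1.27, 1.43, 1.37 and 1.38 in heated, at 1.56, 1.43, 1.46 and 1.32 in irradiated, at 1.60, 1.74, 1.66 and 1.50 in freeze-dried and at 1.88, 1.88, 1.51 and 1.66 in fresh offspring. The heated animals lay below all freeze-dried and fresh ones, the irradiated animals overlapped each of the other 3 groups, and within the fresh group slide 2 was lower than slide 1. Heated minus fresh was -0.37 (SE 0.09, 95% interval -0.55 to -0.18, a ratio of 0.775, adjusted p = 0.0358). Heated minus freeze-dried was -0.26 (SE 0.09, adjusted p = 0.0921) and irradiated minus fresh -0.29 (SE 0.09, adjusted p = 0.112).

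The heated minus fresh difference of Parp1 with slide as a block was -0.27 (adjusted p = 0.111) and the irradiated minus fresh difference passed (-0.29, adjusted p = 0.0446), while heated minus freeze-dried shrank to -0.06. The heated against fresh call was lost, with the direction kept, in 18 of 34 other settings, among them leaving out any 1 heated animal (adjusted p from 0.0736 for heated 2 to 0.0932 for heated 1), fresh 1 (0.0944), fresh 2 (0.113), freeze-dried 1 (0.0501) or irradiated 3 (0.0519).

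Xrcc1, the scaffold that Parp1 calls to a nick, was at 2.85, 2.86, 2.87 and 2.70 in heated, at 3.04, 3.14, 3.08 and 3.03 in freeze-dried and at 3.06, 3.07, 2.63 and 2.81 in fresh offspring. Heated and freeze-dried animals did not overlap, and the fresh animals fell into a high pair on slide 1 and a low pair on slide 2. Heated minus freeze-dried was -0.25 (SE 0.09, adjusted p = 0.123) and -0.01 with slide as a block. Freeze-dried minus fresh was 0.18 (SE 0.09, adjusted p = 0.536).

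The other genes of this route include a pair of glycosylases that cut out damaged bases. Ogg1, which removes oxidised guanine, was at -0.70, -0.67, -0.73 and -0.66 in heated and at -0.89, -0.89, -0.94 and -0.94 in freeze-dried offspring, without overlap, a difference of 0.23 (SE 0.10, adjusted p = 0.172) that was -0.02 with slide as a block. Ung, which removes uracil, differed by -0.06, with an interval that included 0. Polb, the polymerase that fills the gap, had the smallest spread of the 43 genes (SD within groups 0.05) and was at 4.03 to 4.07 in heated and 4.10 to 4.26 in freeze-dried offspring, a difference of -0.10 (adjusted p = 0.197).

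Apex1, the nuclease that opens the strand at a lost base, was at 2.86 to 3.03 in heated and at 3.04 to 3.29 in freeze-dried offspring, a difference of -0.17 (adjusted p = 0.174) that was -0.04 with slide as a block. Lig3, the ligase that closes the nick, differed by -0.11 between heated and fresh offspring by its brighter probe (adjusted p = 0.322 when each probe was tested on its own). Its other probe gave -0.30 (SE 0.07, adjusted p = 0.0299) in that comparison, so this gene passes or does not pass with the choice of probe.

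Nucleotide excision repair, 6 genes, had no call. Xpc, which finds the distorted helix, was at 0.24, 0.30, 0.30 and 0.34 in heated, at 0.31, 0.24, 0.28 and 0.36 in irradiated, at 0.48, 0.54, 0.43 and 0.32 in freeze-dried and at 0.61, 0.47, 0.41 and 0.34 in fresh offspring. The heated and irradiated animals covered about the same low range and overlapped the others in 1 animal each of the freeze-dried and fresh groups. Heated minus freeze-dried was -0.15 (SE 0.06, adjusted p = 0.182), and 0.08 with the mean of both Xpc probes. Ddb1, the platform of the ultraviolet damage sensor, was at 5.70 to 5.78 in heated and at 5.55 to 5.65 in freeze-dried offspring, a difference of 0.17 (adjusted p = 0.205) that was 0.00 with slide as a block.

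Ddb2, the damage-binding partner of Ddb1 and a p53 target in human cells, differed by -0.12 between heated and freeze-dried and by -0.10 between irradiated and freeze-dried offspring. Xpa, which verifies the damage, Ercc1, part of the nuclease that cuts beside it, and Ercc2, a helicase that opens it, gave differences of -0.02, -0.10 and 0.04 for heated minus freeze-dried, each with an interval that included 0. In the mismatch and direct reversal class, Msh6, which recognises mispaired bases, gave -0.02, Mgmt, which takes alkyl groups off guanine, -0.05 and Pms2, the nicking partner in mismatch repair, 0.14 (SE 0.10, adjusted p = 0.434) in the same comparison. Pms2 was at 0.13, -0.02, 0.20 and 0.20 in freeze-dried and at 0.43, 0.23, 0.22 and 0.25 in fresh offspring, the 1 repair gene whose freeze-dried animals all lay below the fresh ones (1.56% of all features did so), with a difference of -0.15 (SE 0.10, adjusted p = 0.618).

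In the fit without slide, the intervals of each gene's brightest probe bounded most of these differences. Other probes of a gene were not counted here. Of 21 genes with several measured probes, all probes had the same sign in heated minus freeze-dried for 14. Heated and freeze-dried animals shared no slide and differed in Y-linked signal. The intervals of that comparison therefore bound group, slide and sex together and not the treatment alone. The 95% interval lay within a 1.5-fold change in either direction for 40 of the 43 genes in heated minus freeze-dried, 40 in irradiated minus freeze-dried, 42 in freeze-dried minus fresh, 39 in heated minus fresh, 41 in irradiated minus fresh and 41 in heated minus irradiated offspring. The exceptions were Palb2 in all 6 comparisons, Exo1 in 4 of them, Brca1 in 3, and Wrn and Chek2 in 1 each. The median spread among the animals of a group was 0.11 for the repair genes and 0.15 for all features tested.

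**Figure D4:**
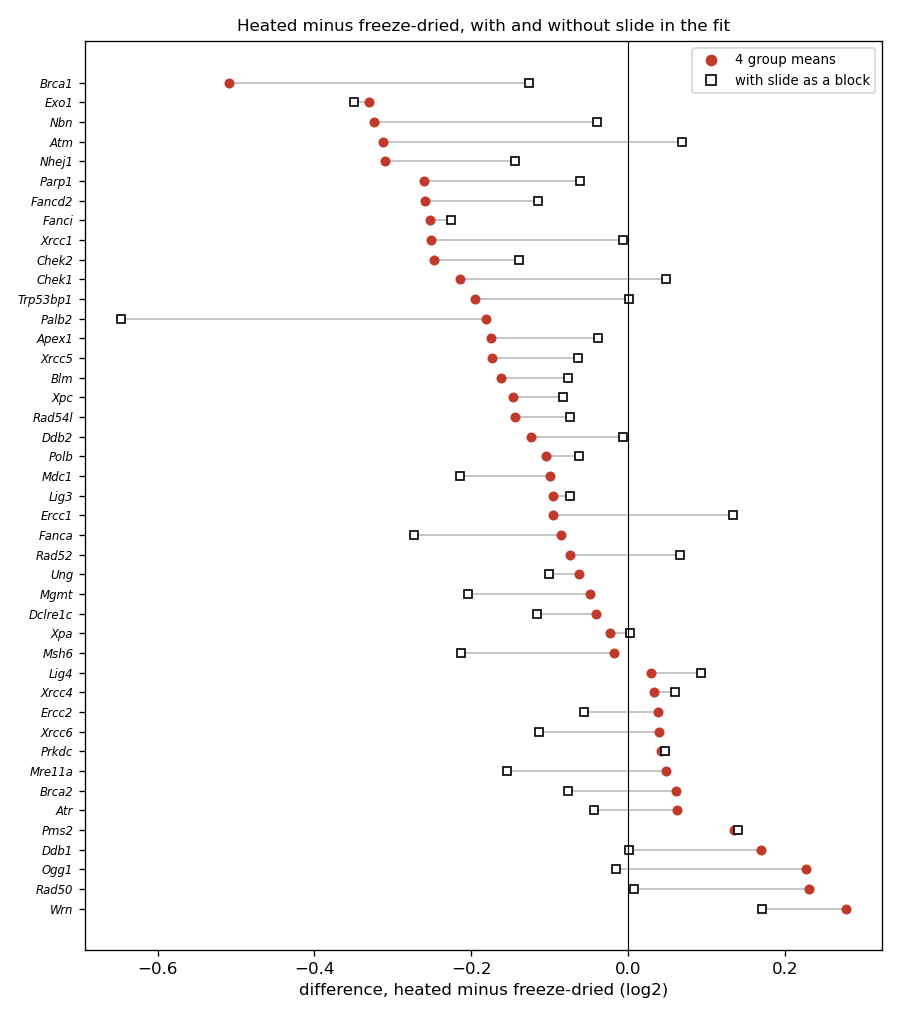
Difference in log2 level between heated and freeze-dried offspring (horizontal axis) for each of the 43 repair genes, from the fit of 4 group means (filled circles) and from the fit with slide as a block (open squares), ordered by the first. Most of the larger differences move toward 0 with slide in the fit (Brca1, Nbn, Atm, Parp1 and Xrcc1 among them), while Exo1 and Fanci stay near their value and Palb2 moves away from 0.

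Because heated and freeze-dried animals shared no slide, each repair gene's difference between them was also fitted with slide as a block, by its brightest probe. There the fresh and irradiated animals on both slides estimate the slide effect. The smallest adjusted p of a repair gene was then 0.568. In irradiated against fresh offspring, which had 2 animals per group on each slide, the block called Lig4 and Parp1, 2 of 43 genes, against 2.46% of all features. When only the 8 animals of heated and freeze-dried offspring were fitted, 6 repair genes were called: Atm, Brca1, Nbn, Nhej1 and Xrcc1 lower and Ogg1 higher, against 8.32% of all features in that fit, which holds no animal that could separate slide from group.

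Other genes of the repair pathways were given by a list of 77 that were not among the 43, of which 76 were tested. In heated against freeze-dried offspring 47 of the 76 were lower on average, against 46.3% of all features. Of the 76, 1 fell and none rose, against 3.86% of all features called. It was Neil3, a glycosylase that opens damaged bases in single strands and is made in dividing cells, at -1.24, -1.47, -1.27 and -1.19 in heated and at -0.85, -1.09, -0.91 and -1.09 in freeze-dried animals, a difference of -0.30 (SE 0.07, adjusted p = 0.0361) that was -0.38 with slide as a block (adjusted p = 0.259). Aptx, Neil2 and Rev3l came next with differences of -0.19, 0.42 and 0.18 (adjusted p = 0.0805, 0.0827 and 0.0847).

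In heated against fresh offspring Clspn, the adaptor through which Atr activates Chek1, was the 1 gene of the 76 called (adjusted p = 0.019), against 2.93% of all features. The Clspn call was lost with slide as a block (adjusted p = 0.0762). It was well above background on no heated array and on 3 of 4 fresh arrays, so only a bound can be given: Clspn was at least 1.32-fold lower in heated offspring, taking the array's lowest signal well above background where its own was lower. In irradiated against fresh offspring, where 1.37% of all features were called, Atrip and Rif1 passed. Atrip, the partner of Atr, rose by 0.34 (SE 0.08, adjusted p = 0.0484). Rif1, which protects ends for joining, fell by 0.30 (SE 0.07, adjusted p = 0.0467). Rif1 was at -0.23, -0.16, -0.12 and -0.28 in irradiated and at 0.16, 0.19, 0.05 and 0.02 in fresh animals, without overlap. Limma called 0 of the 76 genes in irradiated against freeze-dried and in freeze-dried against fresh offspring. At an unadjusted p under 0.05 it passed 4 and 8 of them, against 7.22% and 9.93% of all features. In the first of these comparisons Rad17, Brip1 and Bard1 had the smallest p, with differences of -0.17, -0.48 and 0.27 (each with adjusted p = 0.684). In the second these were Alkbh3, Atrip and Rif1, with 0.19, 0.27 and -0.21 (adjusted p = 0.345, 0.353 and 0.391).

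Several repair genes are known to be transcribed mainly in dividing cells, so genes of cell division were read beside them. Of 24 cell division genes, 10 fell in heated against freeze-dried offspring and none rose, against 1.36% of all features called lower. All 24 were lower on average, against 46.3% of all features, with a median difference of -0.31 where the 43 repair genes had -0.10. Mki67, a marker of cycling cells, was at 2.21, 1.98, 2.25 and 2.03 in heated and at 2.55, 2.53, 2.60 and 2.50 in freeze-dried animals, without overlap (-0.43, SE 0.07, adjusted p = 0.0107). Cenpa, Cdc20 and Mcm5 fell by 0.41, 0.36 and 0.67. In irradiated against freeze-dried offspring limma called 0 of the 24 (3 at an unadjusted p under 0.05, against 7.22% of all features). Cenpa, Cdc20 and Aurka had the smallest p, with differences of -0.18, -0.17 and -0.21. In freeze-dried against fresh offspring it called 0 (0 at an unadjusted p under 0.05, against 9.93% of all features). Mcm2, Mki67 and Ccna2 came first with -0.19, 0.13 and 0.15. In heated against freeze-dried offspring none of the 24 was called with slide as a block, and their median was then -0.24. In heated against fresh offspring 0.54% of all features were called lower. Of the 24 genes, limma called Cenpa, Mcm2, Cdc20 and Mki67 there, with differences of -0.39, -0.42, -0.34 and -0.29. Of these only Cenpa kept the call with slide as a block (-0.34, adjusted p = 0.0487). Fewer cycling cells and less RNA per cell cannot be told apart in whole brains, and the part of cell division in the differences of the repair genes was not tested.

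**Figure D5:**
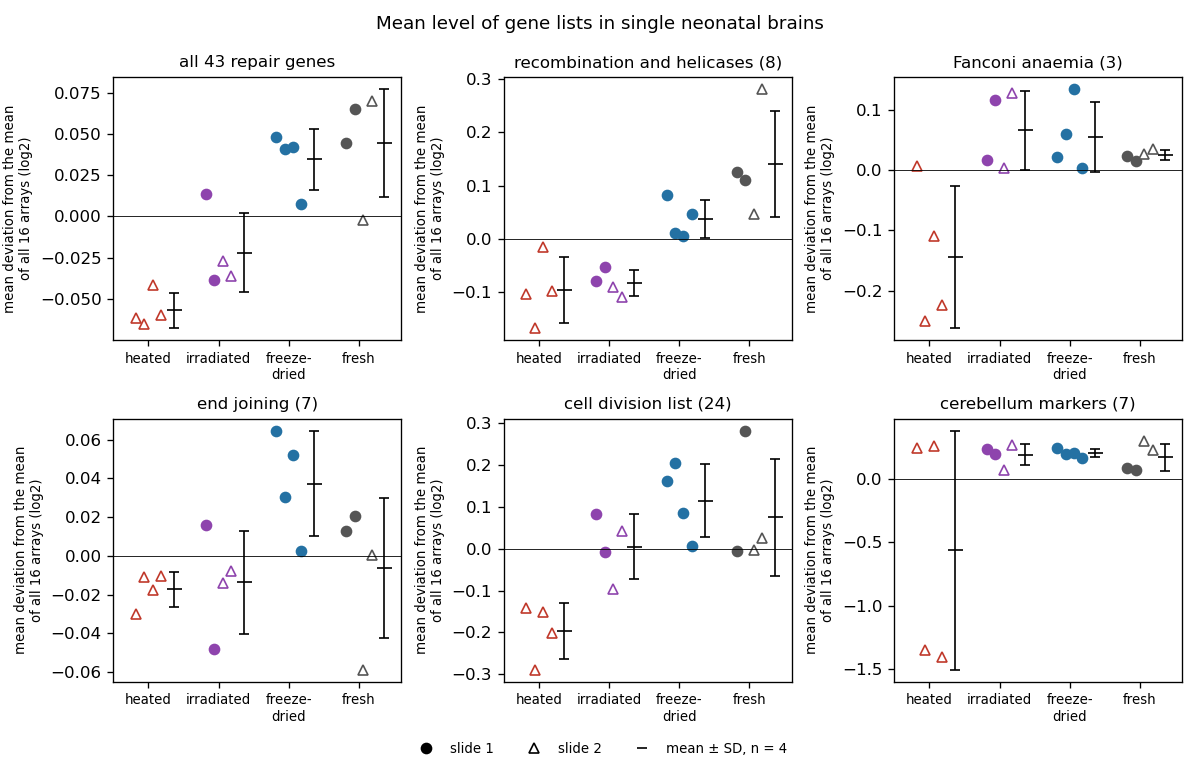
Mean deviation of a list's genes from their mean over all 16 arrays (log2) in each animal, for all 43 repair genes, for 3 of the repair routes, and for the 24 cell division genes and 7 cerebellum markers, with mean ± SD of 4 animals, circles for slide 1 and triangles for slide 2 (vertical scales differ between panels). The 4 heated animals lie between -0.07 and -0.04 for all 43 repair genes and between -0.29 and -0.14 for cell division, below every freeze-dried animal, and heated 2 and 4 stand alone in the cerebellum markers.

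Averaged over the 43 genes, the deviation from the mean of all arrays was -0.06, -0.07, -0.04 and -0.06 in heated, 0.01, -0.04, -0.03 and -0.04 in irradiated, 0.05, 0.04, 0.04 and 0.01 in freeze-dried and 0.04, 0.07, -0.00 and 0.07 in fresh offspring. The heated animals were the lowest, below every other animal, and heated 2 and 4, which were low in Pcp2 and Hoxb5, were not set apart from heated 1 and 3 in this mean. For the cell division list the same deviations were -0.14, -0.29, -0.15 and -0.20 in heated, 0.08, -0.01, -0.10 and 0.04 in irradiated, 0.16, 0.20, 0.09 and 0.01 in freeze-dried and -0.00, 0.28, -0.00 and 0.03 in fresh offspring. In that list heated 2 and heated 4 were the lowest animals, and the part of brain region in this was not tested. Of 9 neural progenitor markers the mean deviation was -0.19 to -0.10 in heated and -0.00 to 0.21 in freeze-dried animals. Their levels summed without the log overlapped, at 194.6 to 204.0 in heated and 188.5 to 199.7 in freeze-dried animals. The progenitor markers did not all move one way. Eomes was called lower in heated against freeze-dried offspring (-0.62). In heated against fresh offspring Eomes and Neurog2 were called lower (-0.67 and -0.92) and Hes5 higher (0.26). None of these calls held with slide as a block. Of 7 microglia markers the mean deviation was 0.10 to 0.15 in heated and -0.06 to 0.01 in freeze-dried animals. It was -0.06 to 0.15 in irradiated animals, which overlapped the heated ones, and -0.26 to -0.08 in fresh animals.

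Genes that p53 activates after DNA damage gave no call in irradiated against freeze-dried offspring. Of 20 such genes, limma called 0 (2 at an unadjusted p under 0.05, against 7.22% of all features). Gadd45a, Zmat3 and Sesn2 had the smallest p (-0.26, -0.17 and -0.16). Cdkn1a, the inhibitor that halts the cell cycle, was at 1.38, 1.45, 1.22 and 1.29 in irradiated and at 1.21, 1.47, 1.44 and 1.24 in freeze-dried animals, a difference of -0.00 (SE 0.08, adjusted p = 0.99) that was 0.08 with slide as a block. Mdm2, the ligase that turns p53 over, gave -0.08 (SE 0.08, adjusted p = 0.789). In heated against freeze-dried offspring 3 of the 20 fell, against 1.36% of all features. They were Sesn2 (-0.41), Sesn1 (-0.27) and Btg2 (-0.41), none of them called with slide as a block. Pmaip1, Cdkn1a and Mdm2 gave -0.19, -0.09 and -0.08 without a call. In freeze-dried against fresh offspring none was called (4 at an unadjusted p under 0.05, against 9.93% of all features). Btg2, Trp53inp1 and Sesn1 gave 0.40, -0.22 and 0.15, and Cdkn1a and Mdm2 gave 0.06 and -0.03. Trp53inp1 fell against fresh in both heated (-0.29, adjusted p = 0.0434) and irradiated offspring (-0.36, adjusted p = 0.0297). With slide as a block the heated call was lost (adjusted p = 0.0677) and the irradiated one was not (adjusted p = 0.0234).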

How the data were processed

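Total RNA from 16 neonatal brains was labelled with Cy3 and hybridised to Agilent one-colour arrays, 1 per animal. Per the file headers and the submitters' processing notes, the authors extracted the scans with Agilent Feature Extraction 11.0.1.1. The deposited files hold fluorescence intensity per spot (background-subtracted processed signal, and median spot and background signals) and quality flags of 0 or 1, not scaled between arrays. A deposited value table of 31313 probes, in log2 units and made by steps not given in the sources used here, served as an alternative only.

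Of 62976 spots per array, 3671 controls and spots marked as outliers were left out (50 probe values missing), repeated spots were averaged to 56605 probes, and log2 of the processed signal minus the array's 75th percentile was used. The filter kept the 34261 probes that every animal of some group showed well above background. The brightest probe stood for a gene, and 26473 features remained, 15994 with a RefSeq symbol. The 43 repair genes have 75 probes, 1 for 20 genes and several for 23. Of 21 genes with several measured probes, all probes had the same sign in heated minus freeze-dried for 14. No spot was saturated. The 4 group means were fitted to all 16 arrays with limma 3.58.1 in R 4.3.3 (12 residual degrees of freedom, moderated two-sided tests, Benjamini-Hochberg adjustment over all features within a comparison), and the fit was tested on simulated data. Animals of a group count as replicates, as the labels number them. The p-values therefore set a difference against the spread between animals within groups, shared over the 4 groups and moderated across features.

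Alternatives were normexp (offset 50, on median signals), quantile and median scaling, the filter, the probe rule, slide as a fixed or random block, the replicate number as a block, pairs of groups alone, a variance trend, a Y-linked term, the value table and leaving out arrays. The 43 genes, the other lists and the rules were chosen with earlier results of these data known. Named with values per animal or difference were, for each comparison, the genes that passed or the 3 of smallest p, the smallest p of each repair route in heated against freeze-dried, Lig4, up to 4 genes of the other lists, Cdkn1a, Mdm2, Mki67, Hoxb5 and Pcp2, while every member could be named. Promoter windows came from RefSeq, build GRCm38.p6. Figures were drawn with matplotlib.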

Additional observations from a re-analysis of the deposited data

Results flagged for a closer look

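Within the groups of 4 animals, 11 of the 172 sets of 4 values (43 genes in 4 groups) held 1 animal far from the other 3, where chance alone marks about 1 in 20. The animals were spread over 10 arrays, with 2 of the values in fresh 1. In the heated group Atm was at -1.13 in heated 1 (others -0.98 to -0.95), Nhej1 at -1.34 in heated 2 (others -1.18 to -1.16), Xrcc1 at 2.70 in heated 4 (others 2.85 to 2.87) and Ddb1 at 5.70 in heated 3 (others 5.77 to 5.78). In the irradiated group Chek1 was at -2.77 in irradiated 1 (others -3.01 to -2.99). In the freeze-dried group Wrn was at 0.91 in freeze-dried 4 (others 0.40 to 0.49) and Ung at 5.08 in freeze-dried 1 (others 4.90 to 4.91). In the fresh group Palb2 was at -2.25 in fresh 4 (others -4.07 to -3.90), Rad52 at -0.15 in fresh 1 (others -0.59 to -0.52), Pms2 at 0.43 in fresh 1 (others 0.22 to 0.25) and Blm at -0.48 in fresh 2 (others -0.79 to -0.75). Of these, the Palb2 value stood out most in size. Limma's test of the interaction of irradiated minus fresh with slide called 0 repair genes and 0 of all features. Its smallest adjusted p over the repair genes was 0.9997. With 2 animals per group on each slide, it cannot show that the effect was the same on both.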

How the results depend on the processing

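Features called were 1021, 0, 0, 775, 364 and 267 and repair genes called 1, 0, 0, 1, 1 and 0 in heated minus freeze-dried, irradiated minus freeze-dried, freeze-dried minus fresh, heated minus fresh, irradiated minus fresh and heated minus irradiated offspring, and other settings are given in this order. The counts were 1273, 0, 0, 521, 208 and 109 features and 2, 0, 0, 0, 0 and 0 repair genes with normexp background correction, and 117, 0, 0, 84, 140 and 127 features and no repair gene with scaling by the median. The fit gave 609, 0, 0, 267, 71 and 95 features and no repair gene with no filter on dim probes, and 1010, 0, 0, 687, 297 and 227 features and 1, 0, 0, 1, 0 and 0 repair genes with the mean of the probes of a gene. Further counts were 0, 0, 1, 406, 651 and 181 features and 0, 0, 0, 0, 2 and 0 repair genes with slide as a fixed block, and 41, 0, 0, 580, 556 and 212 features and 0, 0, 0, 0, 1 and 0 repair genes with slide as a random block. They were 2162, 0, 1, 88, 74 and 757 features and 6, 0, 0, 0, 0 and 1 repair genes with a fit of only the groups compared, and 142, 0, 0, 730, 152 and 67 features and 0, 0, 0, 1, 0 and 0 repair genes with a term for Y-linked signal. The fit gave 21, 0, 0, 13, 0 and 26 features and no repair gene with the 4 arrays low in Hox genes left out, and 1, 0, 0, 1, 24 and 18 features and no repair gene with these 4 arrays left out and slide as a block. The counts were 0, 0, 0, 312, 939 and 112 features and 0, 0, 0, 1, 3 and 1 repair genes with the deposited value table. With the replicate block and slide together they were 0, 0, 0, 8, 277 and 11 features and no repair gene. On slide 2 alone heated minus fresh, irradiated minus fresh and heated minus irradiated gave 12, 99 and 308 features and no repair gene. On slide 1 alone irradiated minus fresh gave 0 of each. The labels' replicate numbers do not pair the animals, since same-numbered animals deviated together with correlations from -0.39 to 0.38. With these numbers as a block (replicate block) the counts were 1238, 0, 0, 696, 308 and 177 features and 1, 0, 0, 1, 1 and 0 repair genes. Leaving out 1 animal at a time gave 178 to 1553 features and 0 to 2 repair genes in heated minus freeze-dried, 0 to 3 features and no repair gene in irradiated minus freeze-dried, 0 to 4 features and no repair gene in freeze-dried minus fresh. In the other comparisons it gave 252 to 1127 features and 0 to 3 repair genes in heated minus fresh, 54 to 541 features and 0 to 1 repair genes in irradiated minus fresh, 47 to 398 features and 0 to 1 repair genes in heated minus irradiated. The 75th percentile over spots and the fit without the 4 arrays low in Hox genes with slide as a block were chosen after seeing the data. Quantile normalization, the percentile over spots, the stricter filter and a trend of variance with intensity gave counts within 1.5 times of those above. Slide and group cannot be told apart in heated against freeze-dried without the other groups, and 4 arrays per group limit the precision. The cause of the other changes was not tested.

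The named differences (log2) that changed sign are given by setting. Slide as a fixed block gave Cdkn1a -0.017, Hoxb5 1.40, Mdm2 0.012 and Pcp2 -0.012 in freeze-dried minus fresh, Cdkn1a 0.073 in heated minus freeze-dried, Cdkn1a 0.078 and Hoxb5 -0.087 in irradiated minus freeze-dried. The replicate block together with slide gave Cdkn1a -0.024, Hoxb5 0.72 and Mdm2 0.043 in freeze-dried minus fresh, Cdkn1a 0.086 and Nbn 0.015 in heated minus freeze-dried, Cdkn1a 0.084 and Pcp2 -0.070 in irradiated minus freeze-dried. Leaving out the 4 arrays low in Hox genes gave Hoxb5 0.18 and Pcp2 0.19 in heated minus freeze-dried, Cdkn1a 0.040, Hoxb5 -0.32 and Pcp2 -0.017 in irradiated minus freeze-dried. Leaving them out with slide as a block gave Cdkn1a -0.066, Hoxb5 0.068, Mdm2 0.00077 and Pcp2 -0.0062 in freeze-dried minus fresh, Cdkn1a 0.16 and Pcp2 0.33 in heated minus freeze-dried, Cdkn1a 0.12 and Hoxb5 -0.74 in irradiated minus freeze-dried. Slide 1 alone gave Cdkn1a -0.019 and Hoxb5 2.17 in freeze-dried minus fresh, Cdkn1a 0.076 in irradiated minus freeze-dried. Slide 2 alone gave Lig4 0.0087 in heated minus fresh. Slide as a random block gave Hoxb5 0.57 in freeze-dried minus fresh, Cdkn1a 0.029 in irradiated minus freeze-dried. Quantile normalization gave Cdkn1a 0.0030 in irradiated minus freeze-dried. The value table gave Pcp2 -0.30 in freeze-dried minus fresh, Cdkn1a 0.011 in heated minus freeze-dried, Cdkn1a 0.046 in irradiated minus freeze-dried. The Y-linked term gave Hoxb5 1.76 in freeze-dried minus fresh, Pcp2 -0.25 in irradiated minus freeze-dried. Normexp gave Pcp2 -0.0090 in freeze-dried minus fresh, Mdm2 0.0037 in heated minus freeze-dried. Scaling by the median gave Hoxb5 0.0034 in freeze-dried minus fresh, Lig4 -0.040 in heated minus freeze-dried, Pcp2 -0.076 in irradiated minus freeze-dried. The mean of the probes gave Lig4 -0.17, Mdm2 0.0032 and Xpc 0.082 in heated minus freeze-dried, Mdm2 0.060 and Wrn -0.025 in irradiated minus freeze-dried. Over the fits without 1 animal, the ranges that crossed 0 were Cdkn1a -0.049 to 0.040 in irradiated minus freeze-dried, Hoxb5 -2.13 to 1.63 in freeze-dried minus fresh, Hoxb5 -0.32 to 2.07 in irradiated minus freeze-dried, Lig4 -0.011 to 0.065 in heated minus freeze-dried, Mdm2 -0.10 to 0.015 in freeze-dried minus fresh and Pcp2 -0.060 to 0.061 in irradiated minus freeze-dried.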
